A study of Gallus gallus with 20 samples.

Results

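The feather keratins described here are 30 genes of the chromosome 27 cluster in the chicken, out of 47 that the deposited keratin table names Chr27_FK plus a number. They are the numbers 3 to 11, 16 to 20 and 22 to 37, written below as FK3 to FK37. The rule that picks them names numbers only. The genes were chosen with earlier results of these data known, so the choice may not be independent of their levels. The table holds 97 feather keratins and 180 keratins in all, within a table of 16290 genes. The names place the genes on chromosome 27 of the build galGal4 per the submitters' processing notes. The files do not state that the numbers follow the order of the genes on the chromosome, so "along the numbering" means only the order of the names.

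Feather keratins are beta-keratins, also called corneous beta-proteins, a family of small structural proteins found only in birds and reptiles. They assemble into stiff filaments inside dying epidermal cells and make up most of the mass of a mature feather. Related beta-keratins, the scale and claw keratins, harden the scutate scales of the foot and the claws. Many gene copies of the family lie in tandem arrays on a few chromosomes. Particular roles of single copies in this array are not given here: each member is described as a feather keratin and by its level.

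Tissue was taken on embryonic day 16 from White Leghorn embryos, and 20 libraries fell into 9 groups. The treated groups were scutate scales, the large plates on the front of the foot. In 1 of them retinoic acid (RA), which is made from vitamin A, was placed in the amniotic cavity on embryonic day 9 (n = 2). Some of the others misexpressed Sox18 (a transcription factor, n = 3), beta-catenin (which carries Wnt signals to the nucleus, n = 2) or Grem1 (an inhibitor of bone morphogenetic proteins, n = 2). The rest of the treated groups misexpressed Spry2 (an inhibitor of signalling downstream of receptor tyrosine kinases, n = 2), a construct named Zic1-deltaC (n = 3) or Sox2 (a transcription factor, n = 2). Normal feather came from dorsal skin (n = 2), and control scales misexpressed green fluorescent protein (GFP, n = 2). The 6 gene groups and the GFP group received RCAS, an avian retroviral vector, on embryonic day 3 as virus or as electroporated plasmid, and the labels name neither virus for RA scales and feather nor a vehicle control for RA. RCAS spreads from cell to cell and is not limited to one cell type, and the share of infected cells was not measured.

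Levels were deposited as RPKM, reads per length of gene model and scaled to the reads of the library. This is a relative measure, and read totals and depth are unknown. Library sums of RPKM ranged from 373552 to 750919, and Pearson's r of replicates over all genes lay between 0.989 and 0.997. GFP replicate 1 stood apart: 88 genes, each at 1 RPKM or more, exceeded 4 times their level in every other library, whereas the other 19 libraries held 0 to 2 such genes each. Libraries of beta-catenin, Grem1 and Spry2 (6 in all) had 25 genes at 1 RPKM or more that the other 14 libraries list at 0, so these 3 groups share a difference from GFP that cannot be told apart from their treatments. Scale keratins fitted the tissue labels, since their 18 genes summed to a mean of 264 RPKM in feather and 26214 RPKM in GFP scales. KRT75A and KRT75B, listed as feather markers, summed to means of 339 RPKM in feather and 197 RPKM in GFP scales. In treated scales their means ran from 65.8 RPKM with Zic1-deltaC to 435 RPKM with Sox2. KRT1 and KRT10 summed to means of 19.3 RPKM in feather and 2592 RPKM in GFP scales. Their means in treated scales ran from 879 RPKM with Sox2 to 4781 RPKM with Zic1-deltaC. KRT5, KRT14 and KRT15, listed as basal markers, summed to means of 643 RPKM in feather and 3087 RPKM in GFP scales. With treatment these means ran from 1018 RPKM with Sox18 to 3036 RPKM with Grem1. The simple epithelium list of KRT7, KRT8, KRT18 and KRT19 had means of 205.5 RPKM in feather and 147 RPKM in GFP scales. With treatment it ran from 133 RPKM with beta-catenin to 355.5 RPKM with Sox2. The genes that the viruses carried were not looked up here, because the files give no symbols for genes other than keratins. Changes are log2 differences of (RPKM + 1) with their standard errors (SE), tested with limma across the 11863 genes that reached 1 RPKM in at least 2 libraries. The Benjamini-Hochberg adjustment ran over all of these genes, with a threshold of 0.05, and such a change understates the fold of a gene at low level. Whether replicates are separate embryos is not in the labels, so the p-values speak for the spread among these libraries, which may be technical.

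Together the 30 genes were highest in feather, intermediate in scales given RA, Sox18 or beta-catenin, and lowest with Sox2. Their summed level was 30891 and 31060 RPKM in the RA libraries, 24307, 19826 and 17853 RPKM with Sox18, and 10508 and 14262 RPKM with beta-catenin. It was 1134 and 1796 RPKM with Grem1, 857 and 3078 RPKM with Spry2, 4823, 4851 and 3925 RPKM with Zic1-deltaC, and 177 and 34.1 RPKM with Sox2. The feather libraries summed to 65514 and 41589 RPKM, and the GFP scales to 3795 and 5729 RPKM. For every group other than Zic1-deltaC, the sums did not overlap those of GFP. Relative to the GFP mean the sum was 6.50-fold higher with RA, 4.34-fold with Sox18, 2.60-fold with beta-catenin and 11.2-fold in feather, and 3.25-fold lower with Grem1, 2.42-fold with Spry2 and 45.1-fold with Sox2. Against GFP replicate 2 alone the rises were 5.41-fold, 3.61-fold, 2.16-fold and 9.35-fold, and the falls 3.91-fold, 2.91-fold and 54.3-fold. All these folds are of unscaled RPKM. Scaling libraries by median ratios shifts log2 changes against GFP by 1.27 in feather, 0.37 with RA, 0.22 with Sox18 and -0.34 with Sox2, and by less in the other groups. Quantile normalization instead lowered the feather sum. In these bulk tissues, fewer cells that make a keratin and less of its RNA per cell cannot be told apart.

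**Figure D1:**
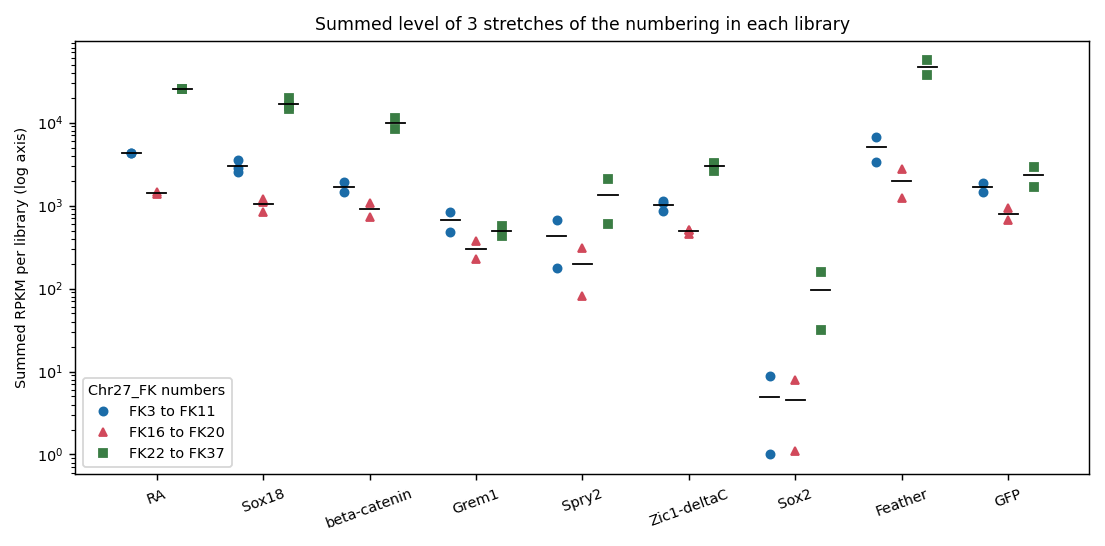
Summed RPKM (log axis) of 3 stretches of the numbering in each of the 20 libraries, by group; points are libraries and black lines are group means. FK22 to FK37 carry most of the level in feather (mean 46504 RPKM) and in all treated scales but those with Grem1. In Grem1 scales FK3 to FK11 (mean 664 RPKM) sum to more than FK22 to FK37 (mean 500 RPKM).

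The numbering divides into 3 stretches wherever numbers are left out: FK3 to FK11 with 9 genes, FK16 to FK20 with 5 and FK22 to FK37 with 16. In the groups with higher sums than GFP, the last stretch had the largest folds. Its sum relative to GFP was 10.99-fold higher with RA, 7.23-fold with Sox18, 4.25-fold with beta-catenin and 20.2-fold in feather. For FK3 to FK11 the same folds were 2.56, 1.79, 1.02 and 3.04, and the beta-catenin libraries overlapped GFP. For FK16 to FK20 they were 1.78, 1.31, 1.13 and 2.49, and the Sox18 and beta-catenin libraries overlapped GFP. In the groups with lower sums it had the smallest fold with Spry2 and Sox2, and the largest with Grem1. FK3 to FK11 were 2.51-fold lower with Grem1, 3.91-fold with Spry2 and 339-fold with Sox2, FK16 to FK20 were 2.64-fold, 4.07-fold and 177-fold lower, and FK22 to FK37 were 4.60-fold, 1.71-fold and 23.9-fold lower, where the Spry2 libraries overlapped GFP. The Sox2 means were 4.9 RPKM for FK3 to FK11, 4.5 RPKM for FK16 to FK20 and 96.2 RPKM for FK22 to FK37. FK37 alone had 49.05 RPKM of the last of these means, so the 23.9-fold does not stand for the whole stretch. By Sox2 library the sums were 8.8 and 1.0 RPKM for FK3 to FK11, and 7.9 and 1.1 RPKM for FK16 to FK20. The 339-fold and 177-fold thus rest on sums near 0 that differ between replicates, and do not rank these stretches.

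As a share of the 30 genes' own sum, which does not depend on how much keratin a library holds in all, FK22 to FK37 made up 81.5% and 81.8% in RA scales, 80.5%, 80.2% and 80.9% with Sox18, and in the beta-catenin libraries 79.1% and 79.0%. The share was 37.6% and 31.9% with Grem1, 69.7% and 68.1% with Spry2, and 65.7%, 67.4% and 66.5% with Zic1-deltaC. It stood at 90.6% and 93.8% with Sox2, 85.5% and 89.0% in feather, and 44.1% and 51.2% in GFP scales. Grem1 was thus the one group in which both libraries lay below both GFP libraries, and every library of the other 7 groups lay above both. Replicates differed by 7.07 points at most, in GFP, even where their sums differed 3.59-fold, as in Spry2. Weighted by level, the mean number was 25.2 with RA, 25.4 with Sox18, 24.7 with beta-catenin, 16.6 with Grem1, 24.7 with Spry2, 20.1 with Zic1-deltaC, 32.1 with Sox2, 27.1 in feather and 18.6 in GFP scales. The Sox2 share and mean number rest largely on 1 gene, FK37, with 42.0% and 69.5% of the sum in the Sox2 libraries.

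**Figure D2:**
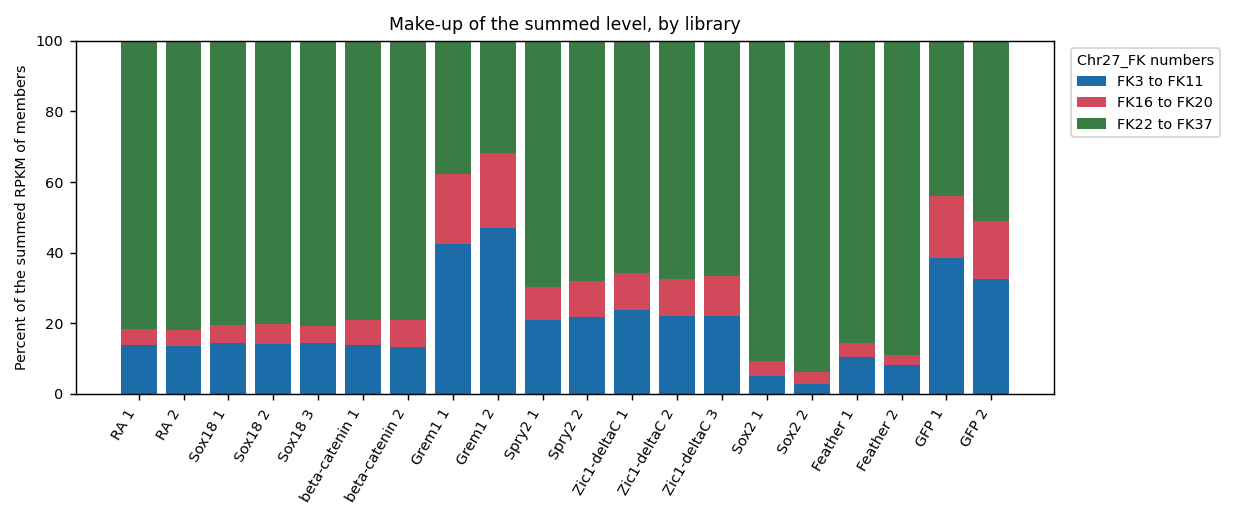
Percent of the summed RPKM of the 30 genes that each stretch of the numbering made up, with 1 bar per library. FK22 to FK37 take 79.0% to 81.8% in the RA, Sox18 and beta-catenin libraries and 85.5% and 89.0% in feather, against 44.1% and 51.2% in GFP. Their share is also above GFP in every Spry2, Zic1-deltaC and Sox2 library, and below GFP in both Grem1 libraries.

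Levels did not change smoothly along the numbering. FK4, FK17 and FK27 were at or near 0 everywhere: FK4 was listed at 0 in every library but Sox18 replicate 3, at 0.1 RPKM, and FK17 and FK27 never exceeded 0.3 and 0.9 RPKM. These 3 genes did not reach the level needed for a test. FK10 was also close to nothing, with a maximum of 1.3 RPKM, and entered the tests through only 2 libraries. FK4, FK10 and FK27 nevertheless have numbers between those of active genes. FK26 and FK28, on both sides of FK27, were in the RA libraries at 2944 and 2872 RPKM and at 2127 and 1942 RPKM.

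**Figure D3:**
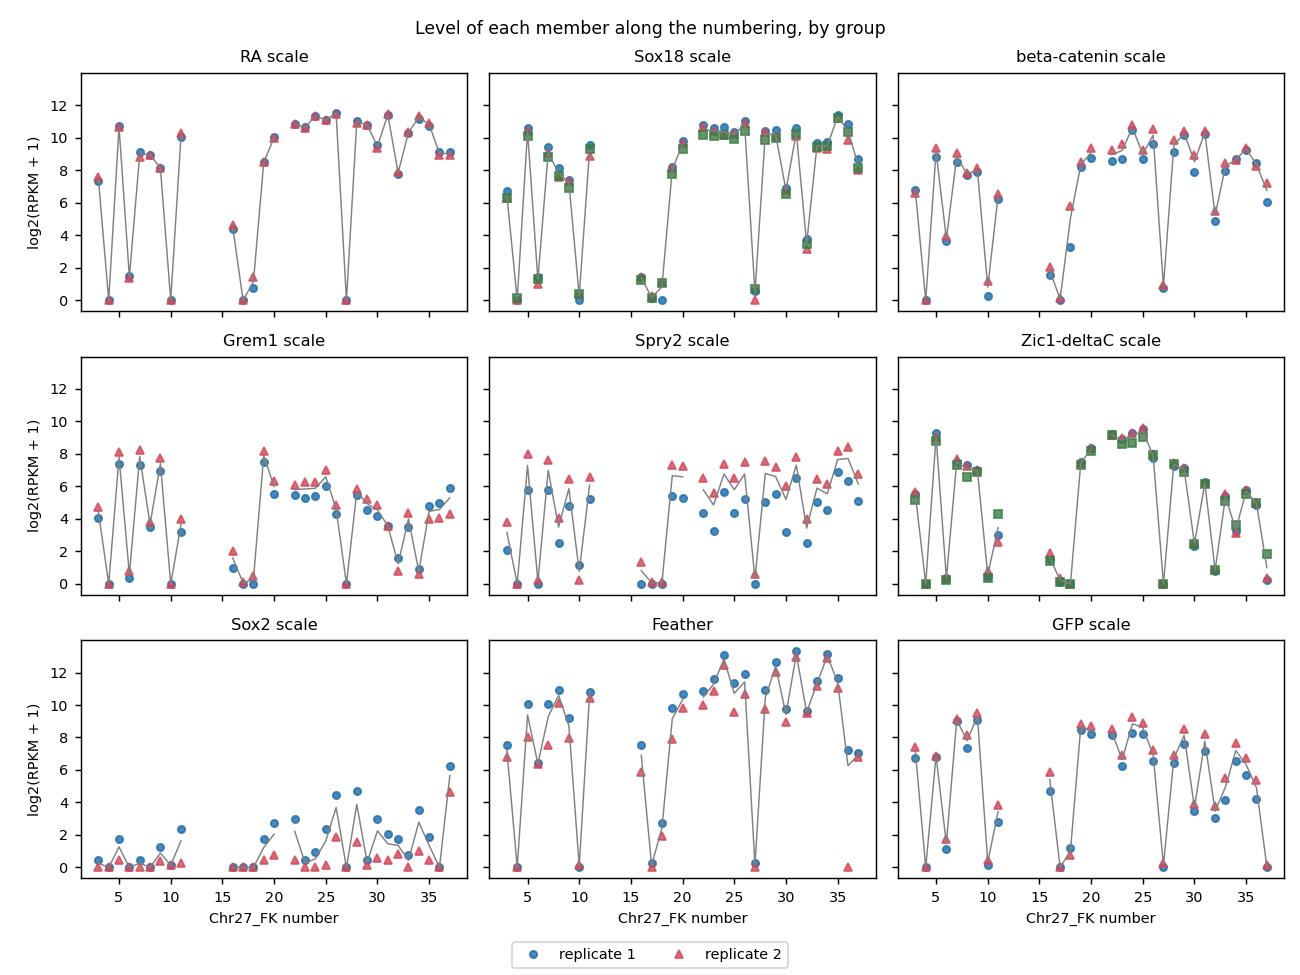
Level of each gene as log2(RPKM + 1) against its Chr27_FK number, in 1 panel per group; symbols are replicates, the grey line joins the values of the group means within a stretch, and gaps are numbers outside the 30. FK4, FK10, FK17 and FK27 lie near 0 in every panel, FK36 of feather replicate 2 is at 0, and the GFP panel ends at FK37 near 0.

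The highest genes in feather all belonged to FK22 to FK37. FK31 reached 10173 and 7787 RPKM in feather, against 145 and 293 RPKM in GFP scales. FK34 stood at 9002 and 7502 RPKM in feather, against 92.1 and 199 RPKM in GFP. FK24 had 8806 and 5673 RPKM in feather, against 310 and 607 RPKM in GFP. For these 3 genes both feather libraries lay far above both GFP libraries. FK29 followed with 6524 and 4131 RPKM in feather, against 192 and 368 RPKM in GFP. FK26 had 3822 and 1667 RPKM in feather, against 92.0 and 151 RPKM in GFP. In treated scales all 5 stayed below both feather libraries, apart from FK26, which had 2944 and 2872 RPKM with RA and 2125, 1955 and 1389 RPKM with Sox18, overlapping feather.

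Treated scales differed from each other in these genes. FK31 was at 2696 and 2829 RPKM with RA, at 1542, 1125 and 1199 RPKM with Sox18 and at 1221 and 1361 RPKM with beta-catenin, but at 10.9 RPKM in both Grem1 libraries. With Spry2 it had 90.9 and 225 RPKM, with Zic1-deltaC 75.0, 73.4 and 70.2 RPKM, and with Sox2 3.1 and 0.4 RPKM. The order of FK31 was therefore feather, RA, then Sox18 and beta-catenin overlapping, then GFP and Spry2 overlapping, then Zic1-deltaC, Grem1 and Sox2. FK34 separated beta-catenin from Sox18: it was at 842, 627 and 727 RPKM with Sox18 and at 415 and 399 RPKM with beta-catenin, which did not overlap. FK34 was at 2327 and 2631 RPKM with RA, 0.9 and 0.5 RPKM with Grem1, 22.2 and 68.7 RPKM with Spry2, 8.4, 7.8 and 11.1 RPKM with Zic1-deltaC and 10.8 and 1.0 RPKM with Sox2. FK24 was at 2608 and 2599 RPKM with RA, 1655, 1133 and 1172 RPKM with Sox18 and 1410 and 1758 RPKM with beta-catenin, and Sox18 and beta-catenin overlapped. In the remaining scales FK24 held 40.6 and 75.7 RPKM with Grem1, 50.4 and 164 RPKM with Spry2, 630, 635 and 407 RPKM with Zic1-deltaC and 0.9 and 0 RPKM with Sox2.

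By group mean, control scales had another order among the genes described here, led by FK9 and FK7. FK24, FK19 and FK25 followed with GFP means of 458, 402 and 390 RPKM, and FK24 was among the 5 highest in feather as well. FK9 was the highest in both GFP libraries, but the order below it differed between them. In GFP replicate 1, FK19 (346 RPKM) lay above FK24 (310 RPKM). In GFP replicate 2, FK24 (607 RPKM) lay above FK7 (564 RPKM), and FK25 (482 RPKM) lay above FK19 (458 RPKM). FK9 was at 281 and 280 RPKM with RA, 171, 159 and 122 RPKM with Sox18, 232 and 278 RPKM with beta-catenin and 594 and 248 RPKM in feather, against 548 and 715 RPKM in GFP scales. With Grem1 it had 123 and 213 RPKM, with Spry2 26.9 and 87.9 RPKM, with Zic1-deltaC 131, 126 and 119 RPKM and with Sox2 1.4 and 0.3 RPKM. FK9 thus lay below both GFP libraries in every treated group, overlapped GFP in feather, and was the only tested gene whose mean was highest in GFP. FK7 stood at 562 and 456 RPKM with RA, 688, 533 and 443 RPKM with Sox18, 371 and 537 RPKM with beta-catenin and 1061 and 184 RPKM in feather, against 520 and 564 RPKM in GFP. The feather range of FK7 took in both GFP libraries, and the RA, Sox18 and beta-catenin libraries each overlapped GFP. FK19 had 358 and 360 RPKM with RA, 289, 287 and 217 RPKM with Sox18, 288 and 358 RPKM with beta-catenin and 892 and 243 RPKM in feather, against 346 and 458 RPKM in GFP. Feather and GFP libraries thus overlapped for FK7, FK9 and FK19. Together with FK3, these are 4 of the 6 tested genes that did not pass the threshold in feather against GFP, the others being FK10 and FK36. This depends on scaling. After median-ratio scaling of the libraries FK19 passed too, as all 4 tested genes of FK16 to FK20 rose, and in FK3 to FK11 5 of 7 rose, against 4 of 8 without it.

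The lowest and highest numbers among the 30, which are not the ends of the 47 numbers, behaved differently. FK3, the lowest number, was at 164 and 194 RPKM with RA, 105, 76.2 and 76.0 RPKM with Sox18, 111 and 95.9 RPKM with beta-catenin and 188 and 109 RPKM in feather, against 108 and 173 RPKM in GFP scales. With Grem1 it was at 15.8 and 25.8 RPKM, with Spry2 at 3.2 and 12.8 RPKM, with Zic1-deltaC at 46.1, 50.1 and 34.7 RPKM and with Sox2 at 0.4 and 0 RPKM, all below GFP. FK37, the highest number, was the one gene of the 27 tested to rise in 7 of 8 groups against GFP. It stood at 555 and 484 RPKM with RA, 406, 262 and 282 RPKM with Sox18, 66.6 and 149 RPKM with beta-catenin, 58.0 and 18.7 RPKM with Grem1 and 32.8 and 107 RPKM with Spry2. In Sox2 scales it had 74.4 and 23.7 RPKM, with Zic1-deltaC only 0.2, 0.3 and 2.5 RPKM, and in feather 133 and 112 RPKM, whereas GFP scales had it at 0 and 0.1 RPKM. FK37 made up 42.0% and 69.5% of the sum of the 30 genes in the Sox2 libraries, where it was the highest of them.

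The levels of FK11, FK5 and FK36 also differed widely between groups. FK11 was at 1077 and 1235 RPKM with RA, 745, 465 and 623 RPKM with Sox18, 75.6 and 91.5 RPKM with beta-catenin and 1786 and 1370 RPKM in feather, against 5.9 and 13.6 RPKM in GFP scales. FK5 was higher with RA, at 1679 and 1592 RPKM, and with Sox18, at 1551, 1395 and 1107 RPKM, than in feather, at 1076 and 259 RPKM, and GFP had 111 and 118 RPKM. FK36 reached 565 and 484 RPKM with RA and 1861, 938 and 1308 RPKM with Sox18, against 152 and 0 RPKM in feather and 17.6 and 40.1 RPKM in GFP. The feather value of FK36 therefore rests on libraries that disagree, 1 of them listed at 0 although FK35 was at 2142 RPKM and FK37 at 112 RPKM in that library. FK6 was high in feather alone, with 84.0 and 81.2 RPKM there, 11.3 and 14.4 RPKM with beta-catenin, and 2.3 RPKM or less in every other library. FK18 had its highest mean with beta-catenin, at 8.6 and 55.1 RPKM, against 1.3 and 0.7 RPKM in GFP, and these beta-catenin libraries differed 6.41-fold.

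RA scales were compared with GFP scales to see which feather keratins differed in scales given retinoic acid, although virus differs between these groups too. Of the 27 tested genes 19 rose and 1, FK9, fell, against 8.34% of all genes tested that rose and 52.2% that fell. After median-ratio scaling of the libraries the shares of all genes were 19.8% and 16.9% and the median change of all genes was -0.02. Every one of the 15 tested genes of FK22 to FK37 rose, with 3 of 8 in FK3 to FK11 (FK5, FK8, FK11) and 1 of 4 in FK16 to FK20 (FK20). Without scaling, the median change was 2.73 over the 27 and -0.31 over all genes. With scaling, 19 of 26 tested genes rose and 0 fell, and their median change was 3.60. FK37 rose by 8.95 (SE 0.63, adjusted p = 5.32e-08), FK11 by 6.85 (SE 0.61, adjusted p = 5.86e-07) and FK30 by 5.80 (SE 0.71, adjusted p = 1.21e-05). FK30 stood at 746 and 672 RPKM with RA, against a mean of 11.9 RPKM in GFP. FK9 fell by 1.15 (SE 0.44, adjusted p = 0.0336), and this call was lost when either RA library or either GFP library was left out, with an adjusted p of 0.0553 to 0.153. Without GFP replicate 1, 16 genes rose and 1 fell, which was FK16 in place of FK9. Scale keratins summed to 10739 to 11153 RPKM with RA and 25381 to 27048 RPKM in GFP, and claw keratins to 12369 to 14940 RPKM with RA and 35110 to 41691 RPKM in GFP, and their part in the result was not tested.

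In Sox18 scales the rises again lay mostly in FK22 to FK37. Against GFP, 16 of the 27 rose and 2, FK9 and FK16, fell, where 12.3% of all genes rose and 41.3% fell (24.1% and 25.0% after scaling). In FK22 to FK37 14 of 15 rose, all but FK32, in FK3 to FK11 2 of 8 (FK5, FK11) and in FK16 to FK20 0 of 4. The median change was 2.13, beside -0.20 over all genes. After scaling, 17 of 26 rose and 2 fell, with 1 of 4 rising in FK16 to FK20. FK37 rose by 8.21 (SE 0.57, adjusted p = 1.77e-08), FK11 by 5.90 (SE 0.56, adjusted p = 4.54e-07) and FK36 by 5.58 (SE 1.24, adjusted p = 0.00134). FK16 had 1.7, 1.7 and 1.4 RPKM with Sox18, against 25.1 and 58.7 RPKM in GFP, and fell by 3.93 (SE 0.44, adjusted p = 2.4e-06). FK9 fell by 2.06 (SE 0.40, adjusted p = 0.000483). Leaving out GFP replicate 1 gave 14 rises and 3 falls, FK6 being the added one. Scale keratins were at 10058 to 12154 RPKM and claw keratins at 7776 to 9461 RPKM with Sox18, below GFP in both cases, and their part was not tested either.

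Beta-catenin scales showed 15 rises and 2 falls among the 27, where 7.97% of all genes rose and 15.2% fell (14.2% and 12.6% after scaling). The rises lay in FK22 to FK37 for 11 of 15 genes, in FK3 to FK11 for 3 of 8 and in FK16 to FK20 for 1 of 4, and the median change was 2.23, beside -0.08 over all genes. After scaling, 16 of 26 rose and 1 fell. FK37 rose by 6.59 (SE 0.63, adjusted p = 2.25e-06). FK30, at 241 and 497 RPKM with beta-catenin, rose by 4.77 (SE 0.71, adjusted p = 0.000194). FK18 rose by 3.55 (SE 0.55, adjusted p = 0.000271), by 4.83 without beta-catenin replicate 1 and by 2.28 without replicate 2, and its adjusted p was 0.0786 when only beta-catenin and GFP libraries were fitted. FK16 stood at 2.0 and 3.2 RPKM with beta-catenin and fell by 3.48 (SE 0.48, adjusted p = 0.000103). FK9 fell by 1.30 (SE 0.44, adjusted p = 0.0441), a call lost without any 1 of the 4 libraries, with an adjusted p of 0.0894 to 0.188. With GFP replicate 2 as the only control, 11 genes rose and 1, FK16, fell. Scale keratins, at 30529 to 41506 RPKM with beta-catenin, lay above GFP, and claw keratins, at 30389 to 43154 RPKM, overlapped it.

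In feather against GFP 21 of the 27 rose and 0 fell, where 9.68% of all genes rose and 78.6% fell (36.0% and 37.03% after scaling, with a median change of all genes of -0.02). In limma 0 genes fell at an unadjusted p below 0.05 as well. The rises included 14 of 15 in FK22 to FK37, all but FK36, with 4 of 8 in FK3 to FK11 and 3 of 4 in FK16 to FK20, and the median change was 3.66, beside -0.93 over all genes. After scaling, 23 of 26 rose and 0 fell, and the median change was 5.11. The rises then included 5 of 7 in FK3 to FK11 and 4 of 4 in FK16 to FK20. For FK16, at 181 and 58.3 RPKM in feather, 1 feather library overlapped GFP although the gene passed the threshold. FK11 rose by 7.29 (SE 0.61, adjusted p = 6.69e-09), FK37 by 6.87 (SE 0.63, adjusted p = 1.93e-08) and FK33 by 6.52 (SE 0.43, adjusted p = 3.58e-10). FK33 was at 2908 and 2265 RPKM in feather, against 16.6 and 43.7 RPKM in GFP. Without GFP replicate 1, 19 rose and 0 fell, and without feather replicate 1, 15 rose and 3 fell (FK7, FK9 and FK36, named after their values were seen).

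In Grem1 scales falls outnumbered rises. Against GFP 15 of the 27 fell and 1, FK37, rose, where 13.2% of all genes rose and 18.2% fell (19.04% and 16.9% after scaling). Falls were spread over 4 of 8 in FK3 to FK11, 2 of 4 in FK16 to FK20 and 9 of 15 in FK22 to FK37, and the median change was -1.83, beside -0.05 over all genes. After scaling, 15 of 26 fell and 1 rose. FK34 fell by 6.34 (SE 0.58, adjusted p = 7.77e-07), FK31 fell by 4.12 (SE 0.42, adjusted p = 2.26e-06) and FK8 fell by 4.11 (SE 0.39, adjusted p = 1.06e-06). FK8 stood at 10.1 and 13.2 RPKM with Grem1, against 162 and 285 RPKM in GFP. FK37 rose by 5.02 (SE 0.63, adjusted p = 2.14e-05). Scale and claw keratins were lower too: the 18 scale keratins summed to 18926 to 21422 RPKM with Grem1 and 25381 to 27048 RPKM in GFP, and the 12 claw keratins to 17797 to 26273 RPKM with Grem1 and 35110 to 41691 RPKM in GFP, and their part in the result was not tested. Leaving out GFP replicate 1 gave 15 and 1 again.

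Spry2 libraries differed more from each other than those of most groups. Replicate 1 was below replicate 2 for all 23 genes that both held at 1 RPKM or more, at a median ratio of 0.265. Even so, 14 of the 27 fell against GFP and 3 rose, where 17.9% of all genes rose and 7.41% fell (12.7% and 12.8% after scaling). The median change was -1.30, beside 0.11 over all genes. Falls made up 5 of 8 in FK3 to FK11, 3 of 4 in FK16 to FK20 and 6 of 15 in FK22 to FK37. After scaling, 14 of 26 fell and 2 rose. FK16, listed at 0 and at 1.5 RPKM with Spry2, fell by 4.64 (SE 0.48, adjusted p = 3.27e-06). FK8, at 4.8 and 15.7 RPKM, fell by 4.46 (SE 0.39, adjusted p = 5.31e-07), and FK3 fell by 4.18 (SE 0.41, adjusted p = 1.83e-06). FK37 rose by 5.85 (SE 0.63, adjusted p = 4.88e-06), FK11, at 35.9 and 96.5 RPKM, by 2.58 (SE 0.61, adjusted p = 0.00548) and FK35, at 118 and 284 RPKM against 51.3 and 108 RPKM in GFP, by 1.28 (SE 0.43, adjusted p = 0.0383). Without Spry2 replicate 1 only 5 genes fell and 5 rose, without Spry2 replicate 2 or GFP replicate 1 only FK37 of the rises was left, and without GFP replicate 2 the falls numbered 8. The calls of FK11 and FK35 were lost without Spry2 replicate 2, with adjusted p of 0.0777 and 0.356, and without GFP replicate 1, with adjusted p of 0.0633 and 0.306. Median-ratio scaling ended the call of FK35 as well (adjusted p = 0.0713). Scale keratins, at 15385 to 18417 RPKM with Spry2, and claw keratins, at 1694 to 4109 RPKM, were below both GFP libraries, and their part in the result was not tested.

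In Zic1-deltaC scales, whose sum overlapped that of GFP, genes of one stretch differed in direction. Of the 27, 8 fell and 2 rose against GFP, where 14.8% of all genes rose and 9.9% fell, and the median change was -0.54, beside 0.05 over all genes. FK5 stood at 622, 536 and 443 RPKM with Zic1-deltaC and rose by 2.20 (SE 0.56, adjusted p = 0.00952), a call lost without either GFP library (adjusted p of 0.0518 and 0.0607). FK23, at 484, 502 and 385 RPKM with Zic1-deltaC against 74.9 and 121 RPKM in GFP, rose by 2.24 (SE 0.49, adjusted p = 0.00337). FK34 fell by 3.77 (SE 0.53, adjusted p = 8.74e-05), FK16, at 1.9, 2.7 and 1.6 RPKM, fell by 3.70 (SE 0.44, adjusted p = 1.68e-05) and FK32, at 0.7, 0.9 and 0.8 RPKM against 7.4 and 12.6 RPKM in GFP, fell by 2.57 (SE 0.36, adjusted p = 9.01e-05). Within FK22 to FK37 the means of FK22 to FK26, FK28, FK33, FK36 and FK37 were above those in GFP. The means of FK29 to FK32, FK34 and FK35 were below them, so the directions did not split cleanly along the numbering. Of all these genes only FK23, FK31, FK32 and FK34 passed the test. FK25, the highest gene of this group, was at 732, 770 and 526 RPKM, against 298 and 482 RPKM in GFP. Without GFP replicate 1, 8 genes fell and 1 rose, and without GFP replicate 2, 5 fell and 1 rose, which was FK23 both times. Scale keratins were at 15461 to 17153 RPKM and claw keratins at 12133 to 15493 RPKM with Zic1-deltaC, also below both GFP libraries, and whether this bears on the falls was not tested.

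Sox2 scales had the lowest levels of all groups for most genes. Against GFP 24 of the 27 fell and 1, FK37, rose, where 48.5% of all genes rose and 10.4% fell (17.7% and 21.6% after scaling), and the median change was -5.30, beside 0.28 over all genes. FK7 was at 0.4 and 0 RPKM with Sox2 and fell by 8.84 (SE 0.61, adjusted p = 8.65e-09), FK9 fell by 8.47 (SE 0.44, adjusted p = 2.89e-10) and FK24 fell by 8.30 (SE 0.46, adjusted p = 6.6e-10). FK9, FK7 and FK24 also had the highest means in GFP, at 631, 541.5 and 458 RPKM. With Sox2 values near 0, the size of a fall mostly follows the GFP level and does not rank genes by response. FK37 rose by 5.36 (SE 0.63, adjusted p = 3.63e-06). Besides FK37, only FK26, at 21.1 and 2.7 RPKM, FK28, at 25.5 and 1.9 RPKM, and FK34 were at 1 RPKM or more in both Sox2 libraries, and replicate 1 exceeded replicate 2 by a median of 9.31-fold over these 4. The scale keratins were low there as well, at 1069 to 3637 RPKM with Sox2 against 25381 to 27048 RPKM in GFP, and the claw keratins at 452 to 656 RPKM with Sox2 against 35110 to 41691 RPKM in GFP; their part in the result was not tested. Without GFP replicate 1, 23 genes fell and 1 rose.

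**Figure D4:**
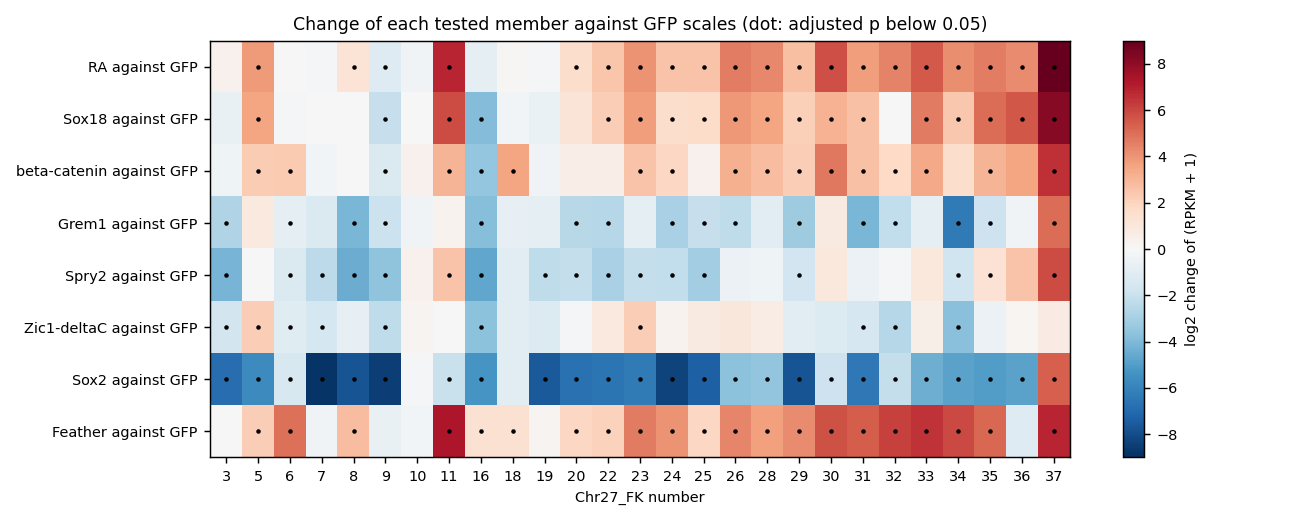
Log2 change of (RPKM + 1) of each of the 27 tested genes (columns, by Chr27_FK number) in each group against GFP scales (rows); red is higher and blue lower than in GFP, and a dot marks an adjusted p below 0.05. The RA, Sox18, beta-catenin and feather rows are red from FK22 onwards apart from FK32 with Sox18, near 0, and FK36 in feather, below 0; the Sox2 row is blue at all dots up to FK36, and FK37 is red and dotted in every row but Zic1-deltaC.

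The 8 comparisons share the same GFP libraries, so their changes are not independent of each other. As a description over the 27 tested genes, Spearman's rho between number and change against GFP was 0.69 with RA, 0.64 with Sox18, 0.59 with beta-catenin, -0.02 with Grem1, 0.54 with Spry2, 0.11 with Zic1-deltaC, 0.30 with Sox2 and 0.51 in feather. Against feather in place of GFP it was 0.03 with RA and 0.00 with Sox18. Since the 27 points share libraries and may share reads, no p is given.

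The same fit covered 57 of the 67 feather keratins outside the 30. Against GFP, 49 of them rose and 2 fell with RA, Sox18 gave 45 and 2, beta-catenin 35 and 4, while there were 9 and 10 with Grem1, 27 and 11 with Spry2, 18 and 6 with Zic1-deltaC, 6 and 19 with Sox2 and 51 and 0 in feather. The 30 genes held 14.7% of the summed RPKM of all feather keratins with RA, 12.6% with Sox18, 30.1% with beta-catenin, 11.1% with Grem1, 11.8% with Spry2, 23.3% with Zic1-deltaC, 1.88% with Sox2 and 10.5% in feather, against 27.1% in GFP scales (means of 2 or 3 libraries).

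RA and Sox18 scales were also set against feather. In RA scales 10 of the 27 were lower than in feather and 3 higher, where 71.7% of all genes were higher and 8.14% lower. After median-ratio scaling 13 of 26 were lower and 1 higher, and of all genes 32.1% were higher and 33.8% lower. Quantile normalization went the other way, with fewer genes lower than without scaling, as given in the closing section. The median changes of these genes and of all genes were -0.44 and 0.63 without scaling. FK6, at 1.8 and 1.6 RPKM with RA, was lower, with a change of -4.95 (SE 0.18, adjusted p = 9.42e-13). Also lower were FK16, at 19.9 and 23.3 RPKM, with a change of -2.21 (SE 0.48, adjusted p = 0.00049), and FK34, with -1.73 (SE 0.58, adjusted p = 0.0121). FK36 was higher by 5.41 (SE 1.36, adjusted p = 0.00162), FK37 by 2.08 (SE 0.63, adjusted p = 0.00619) and FK5 by 1.63 (SE 0.62, adjusted p = 0.0229). The change of FK36 was 1.78 without feather replicate 2 and 9.03 without feather replicate 1, and FK5 had a change of 0.60 (adjusted p = 0.403) without feather replicate 2. Scaling ended the calls of FK37 (adjusted p = 0.122) and FK5 (adjusted p = 0.35).

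In Sox18 scales 13 of the 27 were lower than in feather and 3 higher, where 75.9% of all genes were higher and 8.7% lower, and after scaling 18 of 26 were lower and 1 higher, with 36.95% of all genes higher and 35.4% lower. The median changes of these genes and of all genes were -0.86 and 0.75 without scaling, and -2.15 and 0.02 with it. FK32, at 12.7, 7.9 and 9.9 RPKM with Sox18 against 782 and 715 RPKM in feather, was lower, with a change of -6.09 (SE 0.36, adjusted p = 2.05e-10). FK32 was at 221 and 240 RPKM with RA, so that RA and Sox18 scales did not overlap for this gene. FK16 was lower, with a change of -5.32 (SE 0.44, adjusted p = 7.21e-09), and so was FK6, at 1.7, 1.0 and 1.5 RPKM with Sox18, with -5.13 (SE 0.17, adjusted p = 3.75e-13). FK36 was higher by 6.74 (SE 1.24, adjusted p = 8.21e-05), or 3.11 without feather replicate 2 and 10.4 without feather replicate 1. FK37 was higher by 1.34 (SE 0.57, adjusted p = 0.0386) and FK5 by 1.34 (SE 0.56, adjusted p = 0.0355), and neither passed after scaling (adjusted p of 0.658 and 0.672) or without feather replicate 2 (adjusted p of 0.151 and 0.643). Of the 57 other feather keratins tested, 34 were lower than in feather and 4 higher for RA, and 45 lower and 3 higher for Sox18. With quantile normalization these counts were 23 and 4 for RA and 31 and 7 for Sox18.

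**Figure D5:**
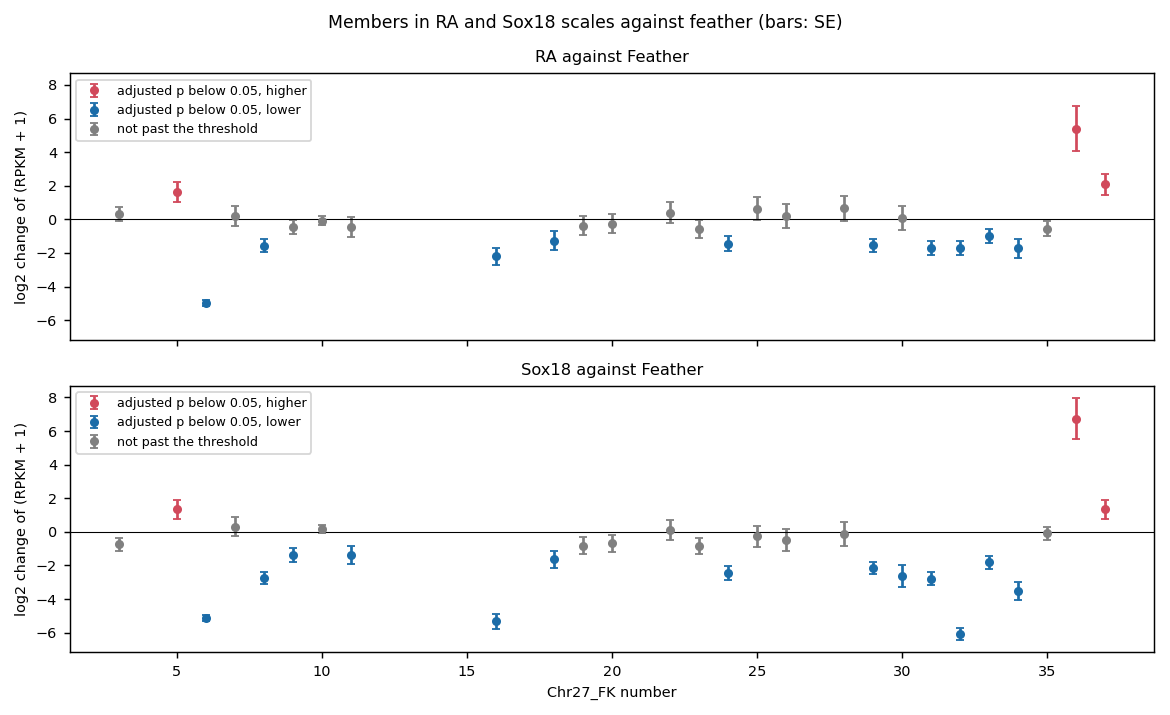
Log2 change of (RPKM + 1) of the 27 tested genes in RA scales (top) and Sox18 scales (bottom) against feather, by Chr27_FK number; bars are SE and colour marks an adjusted p below 0.05. FK5, FK36 and FK37 lie above 0 in both panels, FK6 and FK16 are the lowest with RA, and FK32, FK16 and FK6 are the lowest with Sox18.

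The feather libraries differed from each other in a way that was not the same for all genes. Replicate 1 exceeded replicate 2 for all 25 genes that both held at 1 RPKM or more, at a median ratio of 1.73 and between 1.03 for FK6 and 5.76 for FK7. The 5 highest genes in feather had ratios of 1.20 (FK34), 1.31 (FK31), 1.55 (FK24), 1.58 (FK29) and 2.29 (FK26). Genes of lower level had both small ratios, as FK32 with 1.09 and FK37 with 1.19, and large ones, as FK5 with 4.16 and FK19 with 3.67. GFP replicate 1 was below GFP replicate 2 for all 24 genes compared, at a median ratio of 0.599.

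Over the 9 group means of log2(RPKM + 1), adjoining numbers had a somewhat higher median correlation than numbers far apart, but the ranges overlapped widely. Pearson's r had a median of 0.866 over 21 pairs of adjoining numbers, with a range of -0.18 to 0.98. Over 83 pairs at least 20 numbers apart the median was 0.718, with a range of -0.23 to 0.96. Over all 351 pairs it was 0.766, and the points share groups and libraries. Pairs at least 20 numbers apart always join different stretches, and distance within a stretch was not examined separately. The most alike pairs were not always neighbours: FK20 and FK24 had r = 0.993, FK7 and FK19 r = 0.993, FK22 and FK25 r = 0.992, and FK26 and FK28 r = 0.991. FK10 and FK37 were least like the others, with a median r of -0.02 and 0.27. FK10 never exceeded 1.3 RPKM, so its r rests on values near 0. The low ends of both ranges above, -0.18 and -0.23, were pairs of FK10, with FK11 and with FK37. Similar coding sequences can share reads, which the authors' counting could assign to either copy. In a search over 4935 pairs of one of these genes with another keratin, 0 pairs lay within 2% of each other in every library where either was at least 10 RPKM, which does not show that reads were assigned to the right copy.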

How the data were processed

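The authors deposited RPKM values for all genes and again for keratins, with 1 decimal, and the 180 keratins had identical values in both tables. The submitters' processing notes name TopHat2, Partek and the build galGal4. Versions, strand and the handling of reads that match several copies: not given in the sources used here. Per the labels, total RNA came from Trizol extracts and the library kit was Illumina TruSeq RNA V2. Values of 0.1 RPKM are the smallest above 0, so single reads cannot be read from the steps and no count test was run.

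The 11863 of 16290 genes that reached 1 RPKM in 2 or more libraries were fitted as log2(RPKM + 1) with limma and an intensity trend, over all 20 libraries in 9 groups (11 residual and 5.35 prior degrees of freedom). With 2 libraries against 2 an exact two-sided permutation p cannot go below 0.333, and the calls therefore use the spread that limma pools over groups. The fit was run on simulated data with independent noise and shifts planted in genes of the RA group. Genes deviated together in the real libraries, so that run does not give the error rate here. The genes and lists were chosen with earlier results of these data known. In each comparison, changes with SE were given for the 3 largest rises and 3 largest falls among genes with adjusted p below 0.05, libraries that did not overlap and a group mean of 1 RPKM or more. Levels were given for the 5 highest genes in feather and in GFP, the 3 lowest, and the lowest and highest numbers among the 30. Other levels were chosen after their values were seen. Of the marker lists, those of dermis, endothelium, melanocytes, erythrocytes and muscle matched 0 genes by symbol and were not assessed. Alternatives were a pseudocount of 0.1, a mean filter of 5 RPKM, no filter, scaling by median ratios or quantiles, a replicate block, a fit of only the 2 groups compared, and leaving out each library. Versions were limma 3.58.1 in R 4.3.3, and pandas 2.3.3, numpy 2.4.6 and matplotlib 3.10.9 in Python 3.11.15.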

Additional observations from a re-analysis of the deposited data

How the results depend on the processing

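Of 226 alternative values of the counts of rises and falls, 189 stayed within 1.5 times the count reported. The fall with RA against GFP became 0 with a pseudocount of 0.1, with no filter and with median-ratio scaling, and 0 to 1 without 1 library. The 2 falls with beta-catenin became 1 with a pseudocount of 0.1, no filter, median-ratio scaling and the replicate block, and 1 without any library. With only the 2 groups compared, rises and falls with Spry2 became 1 and 6, rises with Zic1-deltaC 5, and rises with RA against feather 1. Rises against feather also became 1 with median-ratio and quantile scaling for RA, and 1 for Sox18 with these, with a pseudocount of 0.1 and with no filter. Quantile scaling left 5 falls with RA against feather. Without 1 library the counts ranged from 0 to 3 for falls in feather against GFP (the 3 being FK7, FK9 and FK36, without feather replicate 1), 1 to 5 for rises and 5 to 14 for falls with Spry2, 1 to 2 and 5 to 8 with Zic1-deltaC, 6 to 10 for falls with RA and 1 to 3 for rises with Sox18 against feather. The cause of these differences was not tested.

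Of 543 alternative values of the 48 changes given with a test, 485 stayed on their side of the threshold, 58 lost the call and 0 reversed. Without GFP replicate 1, 31 of 36 changes against GFP kept their call, and FK9 with RA and beta-catenin, FK11 and FK35 with Spry2 and FK5 with Zic1-deltaC lost it. The change of FK37 depends on the pseudocount, since GFP was near 0: with 0.1 it was 11.8 for RA. Median-ratio and quantile scaling moved the summed level to 118262 and 31488 RPKM in feather and to 35812 and 24766 RPKM in RA scales. Whether replicate numbers pair libraries is not known. Deviations of same-numbered libraries correlated with GFP between -0.263 and 0.213, and so few libraries per group cannot settle the question. With the replicate block 15 genes rose and 1 fell with beta-catenin, and no count other than these falls moved by over 1.5 times; the named calls lost under it were FK9 with beta-catenin, FK35 with Spry2 (adjusted p = 0.0538) and FK37 with Sox18 against feather (adjusted p = 0.1). Depth is unknown, so values near the step of 0.1 RPKM carry no stated precision.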
